A study of Arabidopsis thaliana with 9 samples.

Results

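The genes described here are 10 genes of the Arabidopsis thaliana root iron response, followed in wild type and in 2 lines with altered expression of the transcription factor gene ERF13. They are FIT (AT2G28160), IRT1 (AT4G19690), FRO2 (AT1G01580), BHLH38 (AT3G56970), BHLH39 (AT3G56980), BHLH100 (AT2G41240), PYE (AT3G47640), BTS (AT3G18290), NAS1 (AT5G04950) and NAS2 (AT5G56080). They were chosen by gene identifier for their role in iron uptake, out of 24140 genes with a value in at least 1 library. Earlier results of these data were known when they were chosen. All 10 had a value in all 9 libraries and passed the filter on low counts, BHLH100 only through the group in which it was high.

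Roots were taken from 9-day-old seedlings grown on 1/2 MS medium, an ordinary nutrient medium for which the labels record no change in iron supply. Each of 3 genotypes had 3 libraries. The first is wild type (WT). The second, 35S:ERF13:MYC, carries ERF13 with a MYC tag under the 35S promoter, which is active in most plant cells, and its label calls it an over expression line. The third is titled erf13-3, yet its genotype label names an ERF13 SRDX line, the deposited table for it is headed E13SRDX, and the series text writes erf3-3. SRDX is a repression domain that is fused to transcription factors. The labels do not say how many independent transgenic lines were used, or whether the replicate libraries stem from separate plantings. The p-values therefore measure only how these libraries spread, and that spread may be technical.

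ERF13 transcript (AT2G44840) was measured first as a check of these labels. Its level in FPKM, fragments scaled to gene length and library size, was 1.03, 0.96 and 1.25 in the WT libraries. It was 905, 789 and 773 in 35S:ERF13:MYC, and 2595, 2711 and 3043 in the libraries labelled erf13-3. The last group thus held the most ERF13 transcript, which goes against a loss of transcript, and directions given for erf13-3 are those of the libraries so labelled. Library totals ran from 12147128 to 12324144 expected counts, so depth hardly differed between groups. Markers of root hair and epidermis, endodermis and stele had a value in every library, and so had 6 of 7 green tissue markers, so detection alone does not tell tissues apart. The first pair of principal components of expression held 58.6% and 22.5% of the variance.

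Arabidopsis takes up iron by reducing it at the root surface and importing the reduced form. FIT, a bHLH transcription factor of the root epidermis, pairs with bHLH factors of subgroup Ib (BHLH38, BHLH39, BHLH100 and BHLH101) and switches on the reductase gene FRO2 and the transporter gene IRT1. The Ib genes, PYE and BTS stand in another branch of the response, driven by bHLH factors of subgroup IVc. Nicotianamine synthases, which include NAS1 and NAS2, make the chelator that carries iron and other metals inside the plant.

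In outline, FIT, IRT1, FRO2, NAS1 and NAS2 were lower than WT in 35S:ERF13:MYC and higher than WT in erf13-3. BHLH38, BHLH39, BHLH100, PYE and BTS were all higher than WT in 35S:ERF13:MYC. Of these 5, BHLH38 and BHLH39 were also higher in erf13-3, while BHLH100, PYE and BTS did not pass the test there. A gene was called higher or lower at an adjusted p under 0.05 in edgeR's quasi-likelihood test, with p-values adjusted by Benjamini and Hochberg's method over 19714 genes. Of all genes tested, 31.5% were called between 35S:ERF13:MYC and WT, 13.8% higher and 17.7% lower. Between erf13-3 and WT 27.3% were called, 13.6% higher and 13.7% lower. Against these shares, 5 of the 10 genes were called higher and 5 lower in 35S:ERF13:MYC, and 7 were called higher in erf13-3. None was called lower in erf13-3 by edgeR, DESeq2 or limma, and the count of lower genes at an unadjusted p under 0.05 was 0 with each of these tools. The median log2 fold change of the 10 genes was -0.1 in 35S:ERF13:MYC and 1.17 in erf13-3, and that of all genes tested was 0.02 in both. Both comparisons use the same 3 WT libraries. The 10 genes were chosen with earlier results of these data known, and BHLH100 passed the filter on low counts only through 35S:ERF13:MYC. Their counts beside the shares of all genes are therefore given as a description.

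**Figure D1:**
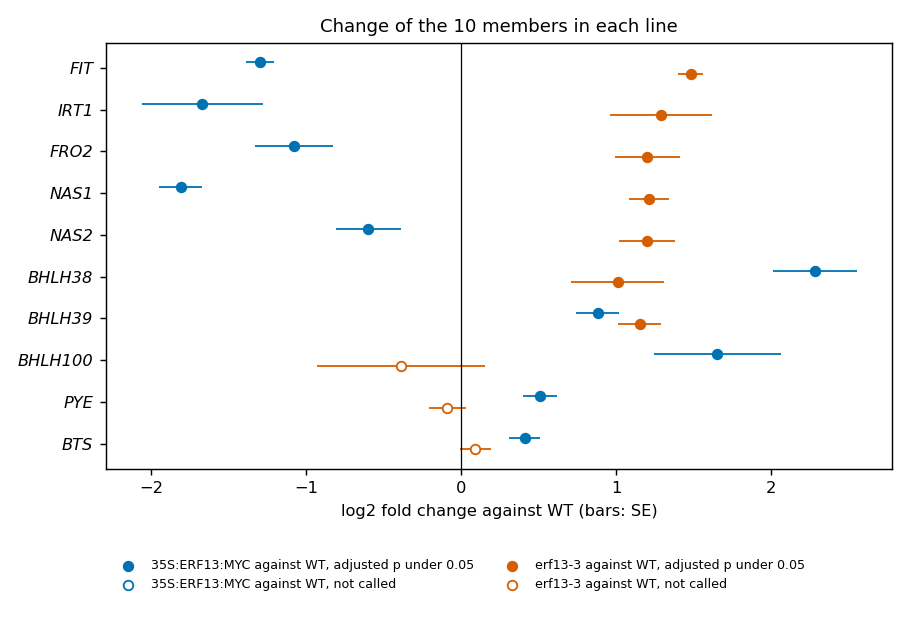
Log2 fold change against WT (horizontal axis, bars are SE) of the 10 genes in 35S:ERF13:MYC (blue) and erf13-3 (orange). Filled circles passed the test and open circles did not. FIT, IRT1, FRO2, NAS1 and NAS2 lie left of 0 in 35S:ERF13:MYC and right of 0 in erf13-3, and the other 5 lie right of 0 in 35S:ERF13:MYC.

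The upstream sequences are shown for the 3 Ib genes and BTS, which rose together in 35S:ERF13:MYC, and for FIT and IRT1, which fell there. Sequences are not shown for PYE, which also rose, or for FRO2, NAS1 and NAS2, which also fell. Their motifs are given below. Each is the 250 bases before the RefSeq gene start in TAIR10.1, read 5′ to 3′ on the strand of the gene. Capitals mark E-boxes, the CANNTG letters bound by bHLH factors, which read the same on both strands. CACGTG, the G-box, is the E-box form preferred by many plant bHLH factors, so each G-box is counted among the E-boxes too. The windows are chr3:21085246-21085495 (minus strand) for BHLH38, chr3:21087711-21087960 (minus) for BHLH39, chr2:17199455-17199704 (minus) for BHLH100, chr3:6273716-6273965 (plus) for BTS, chr2:12004408-12004657 (plus) for FIT and chr4:10707094-10707343 (plus) for IRT1. None of these windows overlaps another annotated gene.
BHLH38: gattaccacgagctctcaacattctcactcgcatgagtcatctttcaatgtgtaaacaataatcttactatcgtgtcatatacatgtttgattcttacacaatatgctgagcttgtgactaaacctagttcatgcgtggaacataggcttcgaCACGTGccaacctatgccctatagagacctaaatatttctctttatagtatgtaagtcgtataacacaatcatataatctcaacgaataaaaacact
BHLH39: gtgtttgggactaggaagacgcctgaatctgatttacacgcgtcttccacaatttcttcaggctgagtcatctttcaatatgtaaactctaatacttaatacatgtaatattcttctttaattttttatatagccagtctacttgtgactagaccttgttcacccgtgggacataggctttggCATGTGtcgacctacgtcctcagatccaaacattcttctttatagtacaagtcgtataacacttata
BHLH100: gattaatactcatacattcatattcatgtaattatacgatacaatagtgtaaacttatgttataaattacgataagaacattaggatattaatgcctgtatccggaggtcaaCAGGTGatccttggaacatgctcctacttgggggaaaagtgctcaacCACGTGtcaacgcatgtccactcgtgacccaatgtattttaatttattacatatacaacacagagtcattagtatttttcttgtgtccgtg
BTS: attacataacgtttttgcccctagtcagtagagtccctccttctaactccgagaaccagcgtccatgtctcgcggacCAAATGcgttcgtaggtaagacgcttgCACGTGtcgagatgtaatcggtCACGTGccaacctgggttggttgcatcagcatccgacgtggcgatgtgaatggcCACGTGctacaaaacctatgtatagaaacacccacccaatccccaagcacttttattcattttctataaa
FIT: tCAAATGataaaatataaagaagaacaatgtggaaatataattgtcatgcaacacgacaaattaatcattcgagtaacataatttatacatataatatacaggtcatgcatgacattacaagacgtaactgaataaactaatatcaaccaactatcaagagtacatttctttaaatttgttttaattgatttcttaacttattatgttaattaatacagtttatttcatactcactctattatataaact
IRT1: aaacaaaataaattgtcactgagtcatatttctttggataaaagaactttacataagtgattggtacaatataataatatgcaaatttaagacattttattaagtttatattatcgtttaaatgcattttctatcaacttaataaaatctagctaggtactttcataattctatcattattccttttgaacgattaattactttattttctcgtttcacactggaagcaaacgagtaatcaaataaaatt

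BTS held 4 E-boxes in its window, and 3 of them were G-boxes, at positions -146, -124 and -70 from the gene start. BHLH38 had its G-box at -97 and BHLH100 at -91, and BHLH100 also had an E-box of another form at -138. At the matching place in BHLH39 stands CATGTG at -67, an E-box that is no G-box. FIT had 1 E-box at -249 and NAS2 had 1 at -41, neither a G-box. PYE, IRT1, FRO2 and NAS1 had no E-box in this window. Among 27443 protein-coding genes, 55.3% held an E-box and 6.49% a G-box in windows of the same length, so an E-box alone is common. GCCGCC, the core of the GCC-box bound by many ERF proteins, was searched on both strands. It was in none of the 10 windows and in 1.87% of all windows. A match is a string of letters, not a bound site, and these windows leave out sequence farther upstream.

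**Figure D2:**
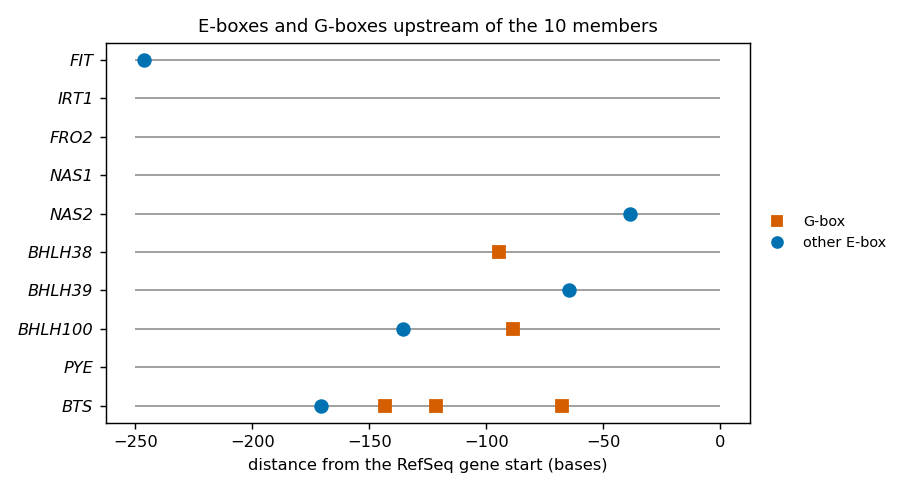
Positions of E-boxes (blue circles) and G-boxes (orange squares) in the 250 bases before each gene start, with distance from the gene start in bases on the horizontal axis. G-boxes are in BHLH38, BHLH100 and BTS, and the windows of PYE, IRT1, FRO2 and NAS1 are empty.

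FIT encodes the bHLH factor at the centre of the uptake response (chromosome 2, 12004658 to 12006276, plus strand). Its level was 13.97, 14.43 and 14.16 FPKM in WT, 6.32, 5.92 and 6.02 in 35S:ERF13:MYC, and 44.8, 45.5 and 39.1 in erf13-3. The groups lie far apart, and the libraries within each are close together. In 35S:ERF13:MYC it fell 2.47-fold, or -1.3 on the log2 scale (SE 0.09, adjusted p = 1.7e-06). The rise in erf13-3 was 2.8-fold (log2 fold change 1.48, SE 0.08, adjusted p = 2.3e-07). Fold changes come from counts scaled with TMM factors and so differ a little from ratios of FPKM means. Set directly against 35S:ERF13:MYC, erf13-3 had 6.9 times the FIT level (log2 fold change 2.79, SE 0.09, adjusted p = 1.6e-09). In the tables that the authors deposited, the log2 ratio of FIT to WT is -1.22 for 35S:ERF13:MYC and 1.6 for erf13-3.

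IRT1 encodes the main iron transporter of the root epidermis, which also carries zinc, manganese and cadmium (chromosome 4, 10707344 to 10709015, plus strand). It stood at 14.02, 13.06 and 6.71 FPKM in WT, at 1.6, 3.66 and 6.51 in 35S:ERF13:MYC, and at 28.2, 28.4 and 30.6 in erf13-3. WT replicate 3 and 35S:ERF13:MYC replicate 3 were almost level, at 101 and 106 counts, whereas erf13-3 was far above both groups. IRT1 fell 3.18-fold in 35S:ERF13:MYC (on the log2 scale -1.67, SE 0.39, adjusted p = 0.0074) and rose 2.45-fold in erf13-3 (1.29, SE 0.33, adjusted p = 0.011). Its spread in WT and 35S:ERF13:MYC was wide: without 35S:ERF13:MYC replicate 3 the log2 fold change was -2.26, and without replicate 1 it was -1.27. The rise in erf13-3 was not called by DESeq2 (log2 fold change 1.29, adjusted p = 0.067). Between the lines the difference was 7.78-fold (log2 fold change 2.96, SE 0.37, adjusted p = 5.1e-05). IRT2 (AT4G19680), a related transporter gene 2505 bases away on the same strand, is named after its values were seen. Its mean level was 10.5 ± 0.312 FPKM (SD, n = 3) in WT, 6.76 ± 0.783 in 35S:ERF13:MYC and 21.7 ± 7.1 in erf13-3, with log2 fold changes of -0.75 (SE 0.23, adjusted p = 0.029) and 0.92 (SE 0.21, adjusted p = 0.0065). The coding sequences of IRT1 and IRT2 are 76.2% identical, with a longest shared run of 22 bases.

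FRO2 encodes the ferric chelate reductase that supplies IRT1 with reduced iron (chromosome 1, 208995 to 213082, plus strand). Its level was 4.84, 4.39 and 2.47 FPKM in WT, 1.38, 2.41 and 2.14 in 35S:ERF13:MYC, and 9.47, 8.56 and 11.2 in erf13-3. WT replicate 3 was only just above the highest 35S:ERF13:MYC library, and all erf13-3 libraries were above all others. The fall was 2.12-fold (log2 fold change -1.08, SE 0.25, adjusted p = 0.0065) and the rise 2.29-fold (1.2, SE 0.21, adjusted p = 0.0013). IRT1 and FRO2 shared their outlying libraries, since both were lowest in replicate 3 within WT and in replicate 1 within 35S:ERF13:MYC. WT replicate 3 was also the lowest WT library for PYE, BTS, BHLH38 and NAS2, and the highest for NAS1 and BHLH39. It stood apart over all genes too. Chi-square per degree of freedom between the counts of 2 libraries was 15.962 and 12.126 for its pairs within WT. For WT replicates 1 and 2 it was 3.98. FIT was flat across the WT libraries. AHA2 (AT4G30190), the proton pump gene that acidifies the root surface, is also named after its values were seen. It had log2 fold changes of -0.35 (SE 0.11, adjusted p = 0.036, not called by limma) in 35S:ERF13:MYC and 0.45 (SE 0.11, adjusted p = 0.012) in erf13-3.

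NAS1, a nicotianamine synthase gene, had the highest level of the 10 genes in every group (chromosome 5, 1457641 to 1459039, minus strand). It read 75.8, 91.5 and 102 FPKM in WT, 27.1, 25.5 and 31.3 in 35S:ERF13:MYC, and 222, 220 and 244 in erf13-3. The 3 groups are well separated. NAS1 fell 3.49-fold (log2 fold change -1.81, SE 0.14, adjusted p = 2.8e-06), rose 2.31-fold in erf13-3 (1.21, SE 0.13, adjusted p = 3.7e-05), and differed 8.06-fold between the lines (3.01, SE 0.14, adjusted p = 3.1e-08). NAS2, its closest relative here, was much lower: 3.57, 2.5 and 2.13 FPKM in WT, 1.7, 1.78 and 2.33 in 35S:ERF13:MYC, and 6.72, 7.19 and 6.86 in erf13-3 (chromosome 5, 22711141 to 22712441, minus strand). WT and 35S:ERF13:MYC overlap for NAS2, and erf13-3 stands above both. The rise in erf13-3 was 2.3-fold (log2 fold change 1.2, SE 0.18, adjusted p = 0.00033). The fall in 35S:ERF13:MYC was small (-0.6, SE 0.21, adjusted p = 0.043) and was not called in 11 of 17 alternative fits, where the adjusted p reached 0.16. Coding sequences of NAS1 and NAS2 are 84.7% identical, with a longest shared run of 49 bases. How the authors assigned reads shared by relatives is not given in the sources used here, and the low value of NAS2 beside the high one of NAS1 is uncertain for that reason.

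**Figure D3:**
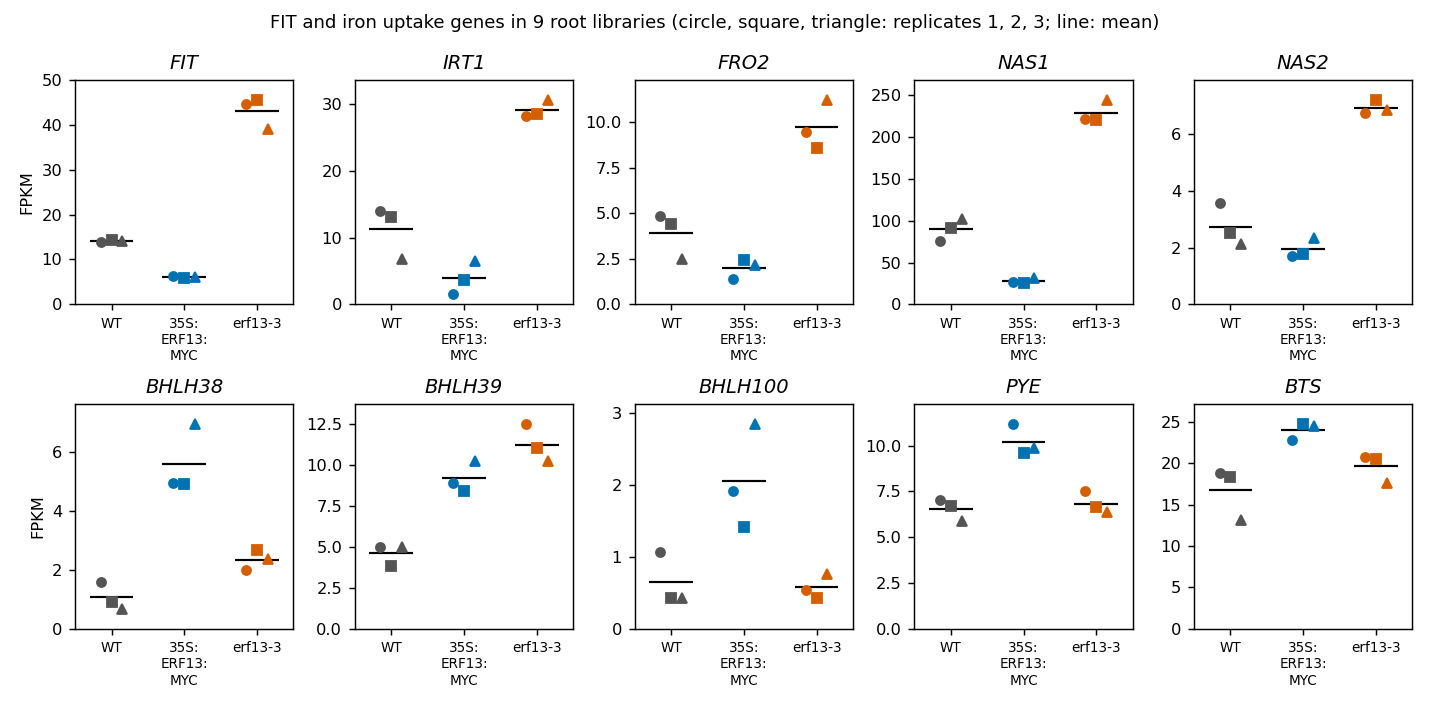
FPKM of the 10 genes in each library (vertical axes start at 0), with circles, squares and triangles for replicates 1, 2 and 3 and a line at the mean. In the upper row erf13-3 lies above WT for all 5 genes. In the lower row 35S:ERF13:MYC lies above WT for all 5.

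BHLH38 and BHLH39 encode Ib partners of FIT and lie in tandem on chromosome 3, at 21084035 to 21085245 and 21086390 to 21087710 on the minus strand, with 1144 bases between them. BHLH38 measured 1.59, 0.91 and 0.68 FPKM in WT, 4.94, 4.92 and 6.93 in 35S:ERF13:MYC, and 1.99, 2.67 and 2.38 in erf13-3. Behind these stood 21, 12 and 9 counts in WT, 65, 64 and 91 in 35S:ERF13:MYC, and 26, 35 and 31 in erf13-3. The 3 groups do not overlap, and 35S:ERF13:MYC is the highest. The rise was 4.86-fold in 35S:ERF13:MYC (on the log2 scale 2.28, SE 0.27, adjusted p = 6.5e-05) and 2.01-fold in erf13-3 (1.01, SE 0.3, adjusted p = 0.026). The latter call was lost without WT replicate 2 (0.9, adjusted p = 0.095), WT replicate 3 (0.8, 0.081), erf13-3 replicate 2 (0.92, 0.081) or erf13-3 replicate 3 (0.96, 0.06). The 3′ part of BHLH38 overlaps AT3G56960 on the opposite strand by 386 bases. The strand setting of the counting is not given in the sources used here, so reads of that stretch cannot be told apart. AT3G56960 had a mean of 1.17 FPKM in WT and 1.89 in 35S:ERF13:MYC, and its log2 fold change of 0.66 did not pass the test (SE 0.24, adjusted p = 0.057).

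BHLH39 read 4.97, 3.83 and 4.98 FPKM in WT, 8.91, 8.39 and 10.2 in 35S:ERF13:MYC, and 12.45, 11.02 and 10.21 in erf13-3. Every library of both lines was above every WT library. The log2 fold change was 0.88 (SE 0.14, adjusted p = 0.00075) in 35S:ERF13:MYC and 1.15 (SE 0.14, adjusted p = 8.7e-05) in erf13-3, and the difference between the lines did not pass the test (0.27, SE 0.13, adjusted p = 0.13). BHLH38 did differ between them, with erf13-3 2.42-fold below 35S:ERF13:MYC (-1.27, SE 0.23, adjusted p = 0.00096). Of these tandem neighbours, 84.8% identical in coding sequence with a longest shared run of 34 bases, only BHLH38 was thus called between the lines. In the authors' deposited table for erf13-3 both are listed, with log2 ratios of 1.15 for BHLH38 and 1.29 for BHLH39. The authors' deposited table for 35S:ERF13:MYC lists BHLH38 at 2.4 and leaves out BHLH39. Its smallest log2 ratio has a size of 1.

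BHLH100, another Ib gene (chromosome 2, 17198037 to 17199454, minus strand), was the scarcest of the 10 in WT. It read 1.07, 0.43 and 0.43 FPKM in WT, 1.92, 1.41 and 2.84 in 35S:ERF13:MYC, and 0.54, 0.43 and 0.76 in erf13-3. These rest on 13, 5 and 5 counts in WT, 27, 15 and 36 in 35S:ERF13:MYC and 5, 6 and 8 in erf13-3. BHLH100 passed the filter on low counts only through 35S:ERF13:MYC, so its rise there is not independent of that filter. All 35S:ERF13:MYC libraries were above the rest, and erf13-3 lay within the WT range. The rise in 35S:ERF13:MYC was 3.13-fold (log2 fold change 1.65, SE 0.41, adjusted p = 0.011). In erf13-3 the log2 fold change of -0.39 did not pass the test (SE 0.54, adjusted p = 0.64), and at this depth a change of that size was not detectable. The lines differed 4.1-fold, with erf13-3 lower (-2.03, SE 0.43, adjusted p = 0.0024). BHLH101 (AT5G04150), the fourth Ib gene, moved in the other line: its mean was 2.41 ± 0.594 FPKM in WT (SD, n = 3), 2.87 ± 0.834 in 35S:ERF13:MYC and 8.19 ± 1.39 in erf13-3. It rose in erf13-3 (1.6, SE 0.24, adjusted p = 0.00041), was not called in 35S:ERF13:MYC (0.07, SE 0.28, adjusted p = 0.86), and differed between the lines (1.53, SE 0.24, adjusted p = 0.00027).

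PYE encodes a bHLH factor that acts in the stele and represses genes of iron transport and storage (chromosome 3, 17567126 to 17569394, plus strand). It read 7.04, 6.72 and 5.89 FPKM in WT, 11.2, 9.62 and 9.88 in 35S:ERF13:MYC, and 7.52, 6.62 and 6.35 in erf13-3. Only 35S:ERF13:MYC stands apart from WT, by 1.43-fold (log2 fold change 0.51, SE 0.11, adjusted p = 0.0058), and erf13-3 was below that line (-0.6, SE 0.11, adjusted p = 0.0012). BTS encodes an E3 ubiquitin ligase with hemerythrin domains that targets bHLH factors of subgroup IVc for breakdown (chromosome 3, 6273966 to 6280562, plus strand). Its values were 18.8, 18.4 and 13.2 FPKM in WT, 22.9, 24.7 and 24.5 in 35S:ERF13:MYC, and 20.8, 20.45 and 17.6 in erf13-3. The 35S:ERF13:MYC libraries were again highest, and WT and erf13-3 overlapped. BTS rose by 1.33-fold in 35S:ERF13:MYC (0.41, SE 0.1, adjusted p = 0.0091). Against WT in erf13-3 neither PYE (-0.09, SE 0.12, adjusted p = 0.62) nor BTS (0.09, SE 0.1, adjusted p = 0.55) passed the test.

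The order of levels among the 10 genes shifted between the genotypes. FPKM is a level per length and can be set side by side between genes. In WT, NAS1 (mean 89.9 FPKM) was followed by BTS (16.8), FIT (14.2), IRT1 (11.3), PYE (6.55), BHLH39 (4.59), FRO2 (3.9), NAS2 (2.73), BHLH38 (1.06) and BHLH100 (0.643). Neighbours in this order overlapped in their library values, apart from NAS1 and BTS, PYE and BHLH39, and NAS2 and BHLH38. In 35S:ERF13:MYC, FIT went from rank 3 to rank 5 and IRT1 from 4 to 7, and in erf13-3 they stood at ranks 2 and 3. The summed level of all 10 was 146 to 156 FPKM in WT, 87.8 to 103 in 35S:ERF13:MYC and 351 to 369 in erf13-3. NAS1 made up most of this sum in WT and erf13-3, but not in 35S:ERF13:MYC. The direct comparison of the lines, in which 38.7% of all genes were called (21.1% higher in erf13-3, 17.6% lower), called 9 of the 10 genes. FIT, IRT1, FRO2, NAS1 and NAS2 were higher in erf13-3, BHLH38, BHLH100, PYE and BTS were lower, and BHLH39 did not pass.

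Further genes of the pathway were counted from lists of regulators, of transport and reduction genes and of storage genes. Of 18 other iron regulators, 16 were tested, and 3 rose and 1 fell in 35S:ERF13:MYC (median log2 fold change 0.05), while 2 rose and 5 fell in erf13-3 (median -0.02). The share called was 25% in 35S:ERF13:MYC, below the 31.5% of all genes, and 43.8% in erf13-3 against 27.3%. The share that rose in erf13-3, 12.5%, was near the 13.6% of all genes, and the share that fell there was 31.2% against 13.7%. In 35S:ERF13:MYC 18.8% rose and 6.25% fell, against 13.8% and 17.7% of all genes. The 3 that rose in 35S:ERF13:MYC were IMA1, IMA2 and IMA3, genes for small peptides that promote the iron deficiency response. All 3 passed the filter on low counts only through 35S:ERF13:MYC, so their rise there is not independent of that filter. IMA1 rose by 2.08 on the log2 scale (SE 0.36, adjusted p = 0.0011), from 9 counts in all WT libraries together to 42. IMA2 rose by 2.21 (SE 0.47, adjusted p = 0.0046), from 8 counts to 41, and IMA3 by 1.06 (SE 0.31, adjusted p = 0.024), from 24 to 54. IMA3 was not called by DESeq2 (1.05, adjusted p = 0.092). None of the 3 passed the test in erf13-3, with values of 0.4, 0.76 and -0.07. All 3 were lower in erf13-3 than in 35S:ERF13:MYC, with adjusted p = 0.0015, 0.015 and 0.013. IMA1 and IMA2, 88.9% identical in coding sequence, may share reads. The gene that fell in 35S:ERF13:MYC was ILR3 (-0.56, SE 0.11, adjusted p = 0.0024), a IVc bHLH factor upstream of the Ib genes. In erf13-3 the falls included BHLH115, also of subgroup IVc (-0.65, SE 0.09, adjusted p = 0.00015), BHLH11, a repressor of the response (-1.09, SE 0.18, adjusted p = 0.0007), and BHLH20 of subgroup IVa (-0.74, SE 0.13, adjusted p = 0.0011).

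Of 25 genes of iron transport and reduction 18 were tested, of which 3 rose and 8 fell in 35S:ERF13:MYC (median -0.15) and 4 rose and 5 fell in erf13-3 (median 0.09). The share that rose in 35S:ERF13:MYC, 16.7%, was near the 13.8% of all genes, and the share that fell was 44.4% against 17.7%. In erf13-3 22.2% rose against 13.6% and 27.8% fell against 13.7%. On log2(FPKM + 1), limma called 7 higher and 4 lower in erf13-3. OPT3, an iron transporter gene of the phloem, rose from 11.9 ± 1.47 to 26.2 ± 1.93 FPKM (SD, n = 3) in 35S:ERF13:MYC (log2 change 1.02, SE 0.12, adjusted p = 5.8e-05). NAS4, named after its values were seen, rose there too (1.62, SE 0.26, adjusted p = 0.00057), from 0.75 to 2.51 FPKM, opposite to NAS1. MTP3, a vacuolar zinc transporter gene of the root epidermis, followed FIT: it was at 11.3 to 12.5 FPKM in WT, 2.6 to 5.0 in 35S:ERF13:MYC (-1.83, SE 0.19, adjusted p = 2.3e-05) and 17.7 to 20.9 in erf13-3 (0.53, SE 0.16, adjusted p = 0.032). YSL3, a transporter gene for metal chelates, fell in 35S:ERF13:MYC (-0.78, SE 0.08, adjusted p = 1.6e-05). FRO5 fell there as well, from 43.9 ± 0.939 to 8.44 ± 1.19 FPKM (-2.46, SE 0.15, adjusted p = 4.1e-07), while its neighbour FRO4 fell in erf13-3, from 17.6 ± 2.14 to 3.78 ± 1.04 (-2.36, SE 0.18, adjusted p = 2.1e-06). Both are reductase genes known for copper uptake. Their coding sequences are 92.6% identical with a shared run of 92 bases, so the split between them is uncertain. NRAMP1, a manganese and iron transporter gene, fell in erf13-3 from 48.6 ± 4.98 to 13.6 ± 2.31 FPKM (-1.97, SE 0.12, adjusted p = 6.1e-07). IREG2, a vacuolar loader of nickel and cobalt that FIT is known to control, also fell in erf13-3 (-1.13, SE 0.21, adjusted p = 0.0015), and NRAMP3, which releases iron from the vacuole, rose (0.43, SE 0.09, adjusted p = 0.005).

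Of 10 iron storage genes 7 were tested, and 4 fell in 35S:ERF13:MYC (median -0.41) and 4 in erf13-3 (median -0.29), 57.1% of those tested in each. Of all genes, 17.7% fell in 35S:ERF13:MYC and 13.7% in erf13-3. DESeq2 and limma also called 4 lower in 35S:ERF13:MYC, but 3 and 2 in erf13-3. With none of these tools did a gene rise in either line, and 0 were higher at an unadjusted p under 0.05. VTL5, of the vacuolar iron transporter-like family, fell from 108 ± 8.33 FPKM in WT to 48.6 ± 8.88 in 35S:ERF13:MYC (-1.26, SE 0.12, adjusted p = 8.9e-06) and 77.1 ± 3.97 in erf13-3 (-0.62, SE 0.11, adjusted p = 0.0015). VTL1 fell in both lines too (-0.93, SE 0.17, adjusted p = 0.0015, and -0.67, SE 0.16, adjusted p = 0.009). VTL2 fell in 35S:ERF13:MYC (-0.9, SE 0.22, adjusted p = 0.01), with 0.22 in erf13-3. The ferritin gene FER1 fell slightly in both (-0.41, SE 0.09, adjusted p = 0.0041, and -0.29, SE 0.09, adjusted p = 0.023), though its FPKM ranges overlapped those of WT and limma did not call it in erf13-3.

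**Figure D4:**
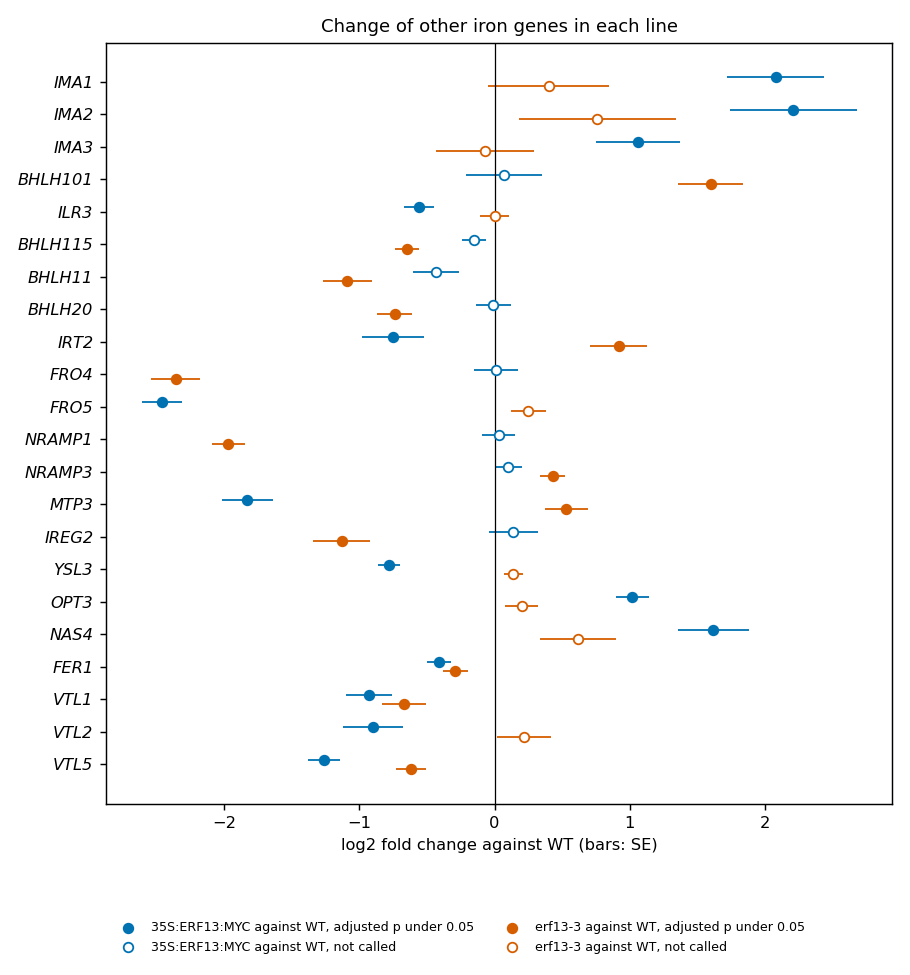
Log2 fold change against WT (horizontal axis, bars are SE) of 22 other iron genes in 35S:ERF13:MYC (blue) and erf13-3 (orange), filled where the test was passed. IMA1, IMA2 and IMA3 are filled only in 35S:ERF13:MYC, BHLH101 only in erf13-3, and VTL1 and VTL5 lie left of 0 in both lines.

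Markers of the tissues in these roots moved as well. In a bulk root sample, fewer cells of a type and less RNA per cell cannot be told apart. Of 10 root hair and epidermis markers, which mark the cell layer of FIT, IRT1 and FRO2, 4 fell in 35S:ERF13:MYC (median -0.41) and 4 rose in erf13-3 (median 0.39). Their summed level was 292 to 352 FPKM in WT, 220 to 244 in 35S:ERF13:MYC and 377 to 574 in erf13-3. Of 6 endodermis markers 5 fell in 35S:ERF13:MYC (median -0.91) and 4 rose in erf13-3 (median 0.39), with sums of 549 to 724, 366 to 375 and 797 to 945 FPKM. In 35S:ERF13:MYC 40% of the root hair and epidermis list and 83.3% of the endodermis list fell, against 17.7% of all genes. In erf13-3 40% and 66.7% rose, against 13.6%. The root hair and epidermis markers that fell in 35S:ERF13:MYC were EXPA7, EXPA18, PRP3 and RSL4. Those that rose in erf13-3 were COW1, RSL4, ADF8 and WER, so only RSL4 was called in both lines. LRX1, RHD6 and GL2 were not called in either line. In 35S:ERF13:MYC the values of RHD6 (0.23), WER (0.12) and the endodermis gene SCR (0.23) lay on the opposite side of 0 from FIT, none of them called. No marker of these lists was called the other way by edgeR, and at an unadjusted p under 0.05 1 endodermis marker was higher in 35S:ERF13:MYC, and limma called 1. Of 6 stele markers 0 were called in 35S:ERF13:MYC by edgeR or DESeq2, 2 were lower at an unadjusted p under 0.05 in edgeR, and limma called 1 higher. Of all genes, 31.5% were called in 35S:ERF13:MYC. In erf13-3 2 stele markers rose and 3 fell (median -0.25), or 33.3% and 50%, against 13.6% and 13.7% of all genes. The sums were 394 to 405 in WT, 407 to 420 in 35S:ERF13:MYC and 304 to 310 in erf13-3. The lower sum in erf13-3 was mostly PHO1, a phosphate exporter gene, at 174 ± 12 FPKM in WT (SD, n = 3) and 83.4 ± 7.31 in erf13-3 (-1.19 on the log2 scale, SE 0.07, adjusted p = 5.7e-07). APL (-0.42, adjusted p = 0.0072) and XCP1 (-0.4, adjusted p = 0.023) also fell in erf13-3, where limma called 2 stele markers lower. SHR (0.6, adjusted p = 0.008) and WOL (0.41, adjusted p = 0.015) rose in erf13-3, and SUC2 was not called (-0.1). These marker genes were named after their values were seen. Green tissue markers, a sign of shoot or greening material, fell for 5 of 7 in 35S:ERF13:MYC (median -1.09) and rose for 6 of 7 in erf13-3 (median 0.96), with sums of 237 to 274, 87.0 to 138 and 526 to 595 FPKM. These are shares of 71.4%, against 17.7% of all genes, and of 85.7%, against 13.6%. Every marker of the 4 lists had a value in all libraries, except LHCB1.1, at 0 in 1 library. The part of these markers in the results on FIT, IRT1, FRO2, NAS1 and NAS2 was not tested.

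**Figure D5:**
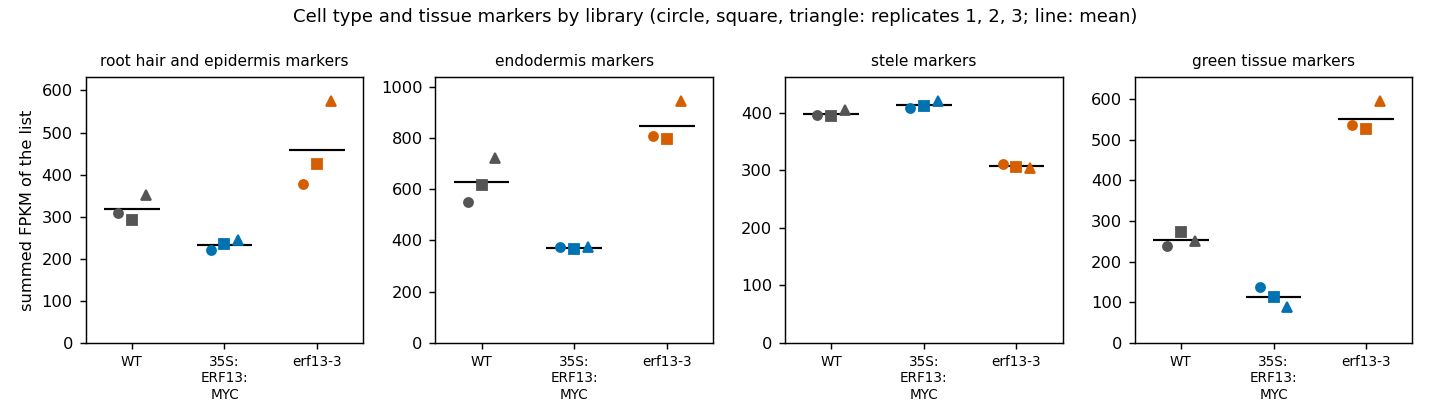
Summed FPKM of the markers of 4 tissues in each library (vertical axes start at 0), with circles, squares and triangles for replicates 1, 2 and 3 and a line at the mean. The sums of root hair and epidermis, endodermis and green tissue markers are lowest in 35S:ERF13:MYC and highest in erf13-3. The stele sum is lowest in erf13-3, mostly through PHO1. APL and XCP1 fell there too, while SHR and WOL rose.

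Genes with a profile like that of FIT or IRT1 were found by Pearson's r of log2(FPKM + 1) over the 9 libraries. From 18632 genes whose FPKM averaged 1 or more, the 10 genes themselves and all genes without a symbol were left out. Any gene without a symbol that had a higher r is therefore not shown. Given first are the genes most like FIT. These were WAKL4 (r = 0.9971), a kinase-like gene of the cell wall, CRK10 (0.9962), a receptor-like kinase gene, SCPL51 (0.9953), DFL1 (0.9933), which encodes an enzyme that conjugates auxin to amino acids, and LTP5 (0.9921), a lipid transfer protein gene. WAKL4 went from 1.47 FPKM in WT to 0.05 in 35S:ERF13:MYC and 5.32 in erf13-3, and DFL1 from 18.1 to 10.4 and 39.4. For IRT1 the nearest were PIRL5 (0.9847), PrfB3 (0.9837), GSTU22 (0.9812), CSLA14 (0.981) and MYBL2 (0.9761), a MYB gene known as a repressor of anthocyanin synthesis. MYBL2 stood at 5.08 FPKM in WT, 0.513 in 35S:ERF13:MYC and 14 in erf13-3. The 9 libraries fall into 3 genotypes, so a high r says mainly that a gene had its levels in the same order of genotypes, and it is given as a description.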

How the data were processed

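Per the file headers, the authors deposited 1 table per library with each gene's expected count, an estimate that need not be whole, and its FPKM. A further deposited table per line gives mean FPKM, the log2 ratio to WT and a Probability score, not used here as a p-value. No aligner, counting tool, genome build or strand setting is named in the sources used here. Per the labels, cDNA was primed with random primers and sequenced on an Illumina instrument.

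A gene missing from a library's table was taken as 0. Expected counts were rounded and tested with edgeR 4.0.16 (R 4.3.3): filterByExpr with a minimum count of 10, which kept 19714 of 24140 genes, TMM scaling and a quasi-likelihood fit of all 9 libraries with no covariate, leaving 6 residual degrees of freedom. Adjusted p-values are Benjamini-Hochberg values over all genes tested, with a threshold of 0.05. SEs of log2 fold changes were derived from the F statistic. Alternatives used DESeq2 1.42.0, limma 3.58.1 on log2(FPKM + 1) and log2(FPKM + 0.1), other filters, a replicate block, only the groups compared, and each library left out in turn. Counting precision is limited at these depths for BHLH38, BHLH100 and the IMA genes.

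The genes and lists were chosen with earlier results of these data known. Named from a list were at most the 4 genes with the smallest p against WT, and the 5 genes with a symbol most like FIT and IRT1. Coordinates, upstream windows and coding sequences are from RefSeq's TAIR10.1. The positions in the authors' deposited tables lay inside the RefSeq gene for all 8 genes listed there.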

Additional observations from a re-analysis of the deposited data

How the results depend on the processing

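Of the values of the 10 genes under the alternatives, 484 kept their direction and their side of the threshold, 21 kept their direction and lost the call, and 4 changed sign. The sign changes concern values that were never called: PYE in erf13-3 against WT was 0.05 and 0.06 with limma at a pseudocount of 1 and 0.1, BHLH100 there ran from -0.62 to 0.18 with a library left out and was above 0 without WT replicate 1, and BTS there was -0.03 without WT replicate 3. The lost calls were NAS2 in 35S:ERF13:MYC (11 alternatives, log2 fold change between -0.75 and -0.33 over all alternatives), BHLH38 in erf13-3 (4 left-out libraries), IRT1 in erf13-3 (DESeq2) and BTS between the lines (5 alternatives, adjusted p up to 0.099). Counts of the 10 genes stayed within 1 of those reported. Genes called in 35S:ERF13:MYC ranged from 3903, without its replicate 2, to 6725 with a library left out. On log2 FPKM without TMM scaling, the median of all genes rose to 0.11 to 0.15 against WT. Of the calls, 60.3% and 59.6% were then higher in 35S:ERF13:MYC, against 43.7%. In erf13-3 71.5% and 71.0% of the calls were higher, against 50%. TMM factors were 0.8946 to 0.9846 in WT, 1.014 to 1.029 in 35S:ERF13:MYC and 0.9913 to 1.065 in erf13-3. Their part in this shift was not tested. FIT, IRT1, FRO2 and NAS1 kept their calls in both limma fits. Same-numbered libraries of the genotypes correlated between -0.333 and 0.547 in their deviations from the group means, over 0.1 in 5 of 9 pairs, and 6 of 9 libraries correlated best with their own number. With a replicate block, 6523, 5494 and 8008 genes were called in 35S:ERF13:MYC and erf13-3 against WT and between the lines, and NAS2 in 35S:ERF13:MYC was -0.6 (adjusted p = 0.06). Depth limits BHLH100 most, at 5 to 36 counts per library.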

Other observations

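Zinc deficiency genes, many of them transporters of the same ZIP family as IRT1, were counted too. Of 10 such genes 8 were tested, and 4 fell in 35S:ERF13:MYC (median log2 fold change -0.28), against 3 with DESeq2 and 2 with limma on log2(FPKM + 1). The edgeR share was 50%, and that of all genes 17.7%. None rose there with any of these tools, and 0 were higher at an unadjusted p under 0.05. The falls were ZIP3 (-0.78, SE 0.13, adjusted p = 0.00085), IRT3 (-0.57, SE 0.12, adjusted p = 0.0053), ZIP5 (-0.67, SE 0.22, adjusted p = 0.037) and ZIP1 (-0.42, SE 0.15, adjusted p = 0.046). ZIP1, whose libraries overlapped those of WT, was not called by DESeq2 or limma, and ZIP5 was not called by limma. In erf13-3, 2 rose and 1 fell (median 0.07), and limma called 4 higher and 1 lower. The share that rose was 25%, against 13.6% of all genes, and the share that fell, 12.5%, was near their 13.7%. ZIP9 rose from 0.447 ± 0.0462 to 2.84 ± 1.28 FPKM (SD, n = 3; log2 fold change 2.63, SE 0.38, adjusted p = 0.00032) and ZIP5 from 8.67 ± 2.42 to 21.5 ± 3.52 (1.18, SE 0.2, adjusted p = 0.00092). The filter on low counts was passed by ZIP9 only through erf13-3. ZIP1 fell there (-1.01, SE 0.15, adjusted p = 0.00042). ZIP5 was called in opposite directions and ZIP1 lower in both lines. The regulator genes BZIP19 and BZIP23 were not called in either line.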
